A study of Homo sapiens with 30 samples.

Results

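The 2 arrays labelled replicative 144h were compared with the 2 arrays labelled replicative T0, over all 52329 features of an exon and transcript array, Affymetrix HTA 2.0. These are 4 of the 30 arrays of a series on WI-38, normal diploid fibroblasts from human lung, kept as an established line. The 144h cells were under proliferative exhaustion in 21% oxygen, and 144 h had passed since the start of the course. The T0 cells mark that start. Both groups were cultured in 10% serum, 5% CO2 and 3% oxygen before exhaustion, and no label gives them a transgene or an agent. The labels carry a single treatment protocol for all samples and give no separate oxygen level for T0, so elapsed time and the step in oxygen cannot be told apart. Nothing says that the arrays of a group came from separate cultures, so the p-values measure the spread within groups, which may be technical. That spread also sets each standard error. It is pooled over all 18 replicative arrays, and can differ from that of the 144h and T0 arrays alone. In bulk RNA of this kind, fewer cells of a type and less RNA per cell cannot be told apart. All levels below are the deposited values, read as log2, and a difference is the 144h mean minus the T0 mean on that scale, with its standard error (SE) and n = 2 arrays a group.

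Replicative senescence is the lasting exit from the cell cycle that normal cells enter after many divisions. Cyclin-dependent kinase inhibitors hold the retinoblastoma protein active, and the E2F and DREAM complexes then keep genes for DNA replication and mitosis off. Senescent fibroblasts are also known for a secretory phenotype (the SASP) of cytokines, chemokines and matrix proteases, whose genes are driven by NF-kB and by AP-1, a dimer of FOS and JUN proteins that works downstream of the ERK kinases.

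The 4 arrays lie on opposite sides of the main division among the 18 replicative arrays. The first principal component of those arrays held 63.0% of the variance. The 144h arrays scored -72.8 and -73.2 on it, beside the 264h and 432h arrays at -78.7 to -72.4. The T0 arrays scored 32.7 and 34.3, on the side of the 792h to 2112h arrays at 46.3 to 55.3, while the 624h arrays lay between at -6.5 and -5.3. The partner arrays correlated at 0.9939 over features at 144h and at 0.9955 at T0. Outside their own pair, both 144h arrays were nearest to RAF 72h arrays, from cells with an induced RAF oncogene, and both T0 arrays to replicative 2112h arrays. The RAF T0 arrays, whose labels give no inducing agent, were nearest to replicative 264h arrays. HAS2 and VCAM1, described below, had mean levels of 5.05 and 9.60 there, 5.95 and 8.20 at replicative 144h, and 10.5 and 3.95 at replicative T0. Whether the induced oncogene bears on the likeness was not tested. The mitotic genes listed below did not fall steadily along the replicative labels. Their mean level was 8.28 and 8.29 in the replicative T0 arrays and 6.57 and 6.67 in the 144h arrays. It lay between 5.49 and 5.74 in the 264h and 432h arrays, then reached 7.79 and 7.94 in the 624h arrays. The 792h and 1008h arrays were back at 5.39 to 5.45, the 1368h arrays stood at 6.19 and 6.18, and the 2112h arrays at 7.77 and 7.88. Whether each array holds the time that its label gives was not tested, and an exchange of labels would change what every difference below means. The groups are therefore described by label. A second step across the same division, replicative 432h minus replicative 624h, shares no array with the first and stands beside it throughout. It takes an earlier label minus a later one, whereas 144h minus T0 takes a later label minus an earlier one.

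At an adjusted p under 0.05, 30739 of the 52329 features (58.7%) were called, with 15774 (30.1%) higher at 144h and 14965 (28.6%) lower. These shares are the background for every count of genes below. A change of at least 2-fold was called for 3499 features (6.69%), of which 2032 (3.88%) were higher and 1467 (2.8%) lower. Both 144h arrays were above both T0 arrays in 35.9% of features and below both in 34.3%, and the groups overlapped or touched in the other 29.8%. The median absolute difference was 0.25, and only 1% of features exceeded 1.8.

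Of the genes with the highest and lowest differences, 5 are given first. HAS2, the synthase that makes long hyaluronan chains at the plasma membrane, had levels of 5.9 and 6.0 in the 144h arrays, against 10.5 and 10.5 in the T0 arrays. The groups were far apart, and the difference of -4.55 ± 0.0719 (SE) means that T0 was 23.4-fold above 144h (limma, adjusted p = 7.59e-12). CEMIP, which binds hyaluronan and is needed for its breakdown in fibroblasts, went the other way: its level was 11.3 and 11 at 144h and 7.4 and 7.3 at T0, a difference of 3.80 ± 0.0903 or 13.9-fold. FGL2, a secreted fibrinogen-like protein that acts on immune cells, had levels of 8.7 and 8.4 at 144h, against 3.4 and 3.2 at T0. Its difference was 5.25 ± 0.214. The T0 levels lay at or below the 5th percentile of those arrays, 3.4, and no background call could be made there, so this difference is not given as a fold. VCAM1, the adhesion molecule that captures leukocytes, stood at 8.3 and 8.1 in the 144h arrays and at 4.0 and 3.9 in the T0 arrays, 19.0-fold higher at 144h. CCL2, the chemokine that recruits monocytes, stood at 10.6 and 10.5 against 6.6 and 6.9, also a difference of 3.80. None of these 5 genes, chosen as extremes of this same comparison, had arrays that overlapped between the groups. Over all features the groups overlapped or touched in 29.8%.

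**Figure D1:**
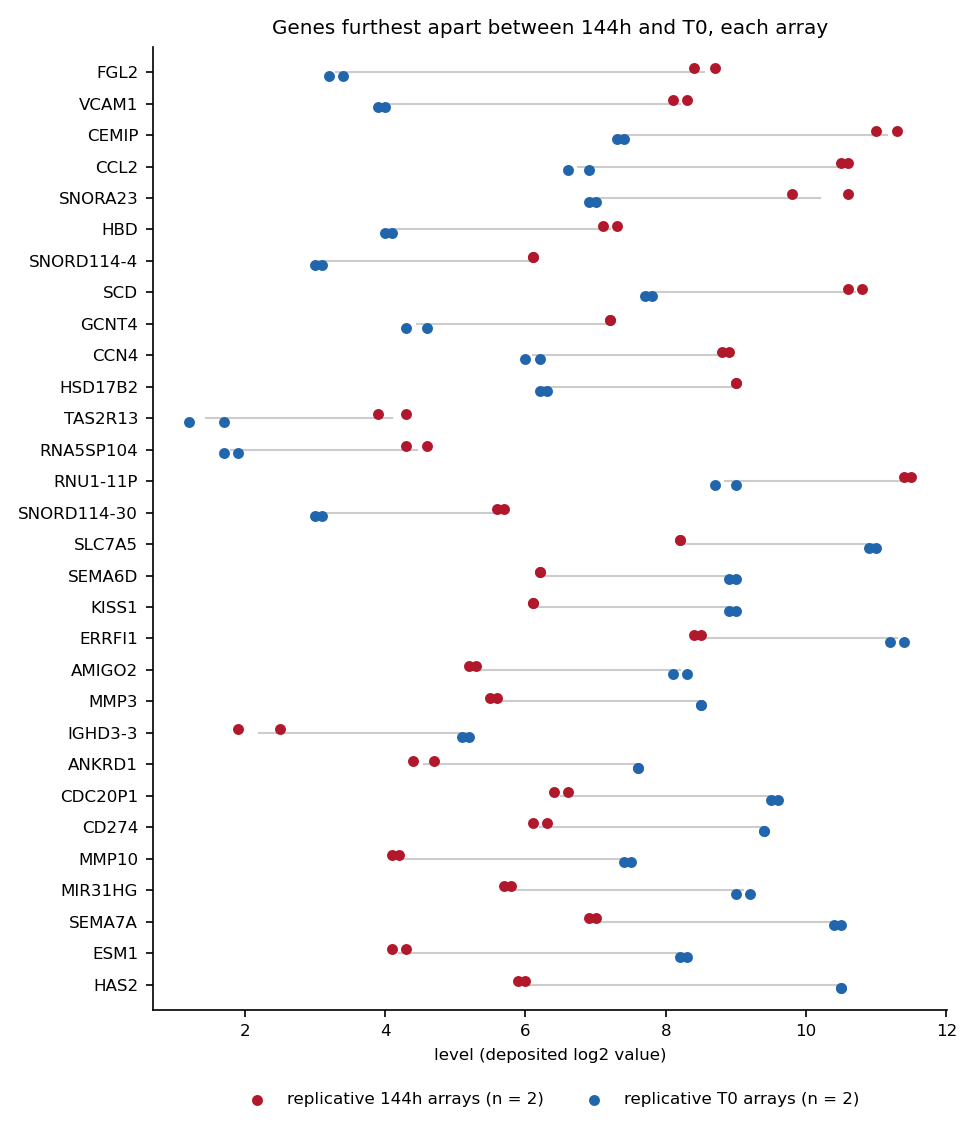
Level of the 15 genes with the highest and the 15 with the lowest called difference, in each of the 2 replicative 144h arrays (red) and the 2 replicative T0 arrays (blue), on the deposited log2 scale, with a grey line between the group means. In none of the 30 genes do the groups overlap, and FGL2 and HAS2 stand at the ends with differences of 5.25 and -4.55. The 30 were chosen as extremes of this same comparison, and over all features the groups overlapped or touched in 29.8%.

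The remaining protein-coding genes among the 15 with the highest difference were SCD, HBD, HSD17B2, CCN4, GCNT4 and TAS2R13. SCD, the desaturase that makes oleate, had levels of 10.8 and 10.6 at 144h and 7.7 and 7.8 at T0. HSD17B2, which inactivates estradiol and testosterone, stood at 9.0 and 9.0 against 6.3 and 6.2, and the matricellular WNT target CCN4 at 8.9 and 8.8 against 6.2 and 6.0. HBD, the delta globin gene, had a difference of 3.15 ± 0.17 from T0 levels of 4.1 and 4.0. The bitter taste receptor TAS2R13 had T0 levels of 1.7 and 1.2, near the bottom of the scale, where no background call could be made.

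The 15 genes with the lowest difference include HAS2. ESM1, a proteoglycan of activated endothelium, had levels of 4.3 and 4.1 at 144h, against 8.2 and 8.3 at T0, and fell by 4.05 ± 0.101. The semaphorins SEMA7A and SEMA6D, guidance ligands for axons and migrating cells, fell by 3.50 ± 0.0512 and 2.75 ± 0.0624. CD274, which encodes the immune checkpoint ligand PD-L1, stood at 6.1 and 6.3 at 144h and 9.4 and 9.4 at T0. KISS1, a peptide that signals to a hypothalamic receptor, fell by 2.85 ± 0.0803, and the adhesion molecule AMIGO2 by 2.95 ± 0.0748. ERRFI1, a feedback inhibitor of the EGF receptor, stood at 8.4 and 8.5 against 11.2 and 11.4. SLC7A5, the large neutral amino acid transporter, stood at 8.2 and 8.2 against 10.9 and 11. IGHD3-3, an immunoglobulin diversity segment, fell by 2.95. Its mean level at 144h was 2.20 (SD 0.424), below the 1st percentile of those arrays, 3.2 and 3.1. No background call could be made there. MMP10, ANKRD1 and MMP3 are described with their groups. The long non-coding RNA MIR31HG fell by 3.35 ± 0.0926, and CDC20P1, a pseudogene of the mitotic activator CDC20 whose probes may also read its parent, by 3.05 ± 0.137.

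Cell division genes were lower at 144h. In the list of G2 and mitotic genes, 35 of 35 measured members were called lower, 34 of them by at least 2-fold, and the median difference was -1.65, against a median of 0.0 over all features. SGO1, the guardian of centromere cohesion, had levels of 5.3 and 5.3 in the 144h arrays, against 7.8 and 8.0 in the T0 arrays. NUF2, a microtubule-binding subunit of the kinetochore, stood at 5.5 and 5.6 against 7.9 and 8.0, and CENPE, the kinetochore kinesin, at 6.2 and 6.2 against 8.4 and 8.5. PLK1, the kinase that drives entry into and progress through mitosis, stood at 8.2 and 8.4 against 10.4 and 10.6, 4.59-fold higher at T0. MKI67, the proliferation marker, fell less, by 1.5 ± 0.0829.

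Many mitotic promoters carry a CHR element, TTTGAA, a short distance below CCAAT boxes, an arrangement bound by DREAM and by NF-Y. RefSeq promoters on GRCh38.p14, which run from 250 bases before to 50 after the start site, were searched on both strands for these letters. Of 38 promoters of 31 mitotic list genes, 25 (65.8%) held TTTGAA and 30 (78.9%) held CCAAT, against 15.2% and 34.6% of all 35116 promoters. Among the promoters of all genes called at least 2-fold lower, 24.4% held TTTGAA, and among those of genes at least 2-fold higher, 16%. A match in these letters is a description and not a site. For PLK1, CCNB2 and HMMR, shown because they carry the 2 motifs close together, the 130 bases before and 20 after the start site read as follows, with TTTGAA and CCAAT, or their reverse, in capitals. They lie on the plus strand at chr16:23678759-23678908, chr15:59105016-59105165 and chr5:163460502-163460651.
PLK1: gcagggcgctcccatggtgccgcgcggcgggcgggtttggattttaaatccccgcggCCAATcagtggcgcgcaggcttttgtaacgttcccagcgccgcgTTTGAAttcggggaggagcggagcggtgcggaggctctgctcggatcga
CCNB2: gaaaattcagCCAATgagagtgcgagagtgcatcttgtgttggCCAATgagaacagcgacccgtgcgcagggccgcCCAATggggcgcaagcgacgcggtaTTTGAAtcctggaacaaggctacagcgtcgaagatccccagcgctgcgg
HMMR: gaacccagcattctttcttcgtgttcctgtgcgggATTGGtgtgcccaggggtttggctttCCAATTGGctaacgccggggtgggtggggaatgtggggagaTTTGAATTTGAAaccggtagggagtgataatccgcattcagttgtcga
The TTTGAA of PLK1 and of CCNB2 begins 29 bases before the start site in both. CCNB2, the B-type cyclin, holds 3 CCAAT boxes above it.

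Genes for DNA replication and repair by recombination were lower as well. Of 36 measured S-phase genes, 31 were called lower and 1 higher, E2F2, at 0.30 ± 0.0776. The median was -0.725, and 11 fell by at least 2-fold. MCM10, which activates the replicative helicase, had levels of 5.6 and 5.6 at 144h and 7.5 and 7.5 at T0. RFC3, a subunit of the loader of the sliding clamp, stood at 5.6 and 5.6 against 7.4 and 7.5, and CDC25A, the phosphatase that activates CDK2, at 5.1 and 5.3 against 6.9 and 6.9. Of 41 S-phase promoters, 18 (43.9%) held TTTCCCGC or TTTGGCGC, letters that E2F factors bind, against 2.27% of all promoters. The RFC3 promoter, shown as 1 of those 18 (chr13:33818019-33818168, plus strand), holds the reverse of TTTCCCGC, in capitals, from 55 bases before the start site.
RFC3: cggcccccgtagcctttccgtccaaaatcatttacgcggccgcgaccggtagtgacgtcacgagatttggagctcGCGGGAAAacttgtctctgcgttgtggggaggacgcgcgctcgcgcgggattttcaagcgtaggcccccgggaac
In the list of homologous recombination and Fanconi genes, 14 of 15 were called lower, with a median of -1.05. XRCC2, which acts in recombination repair, fell by 2.25 ± 0.157, and the BLM helicase by 1.60 ± 0.0624. Clustered histone genes were divided, with 9 of 18 called lower and 4 higher. H2BC10 fell by 1.10 ± 0.115, while H1-5, a linker histone, had levels of 5.2 and 5.1 at 144h, against 3.9 and 4.3 at T0.

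Among the markers used to call senescence, LMNB1 and CDKN2B fell and the p21 and p16 genes did not pass the test. LMNB1, the lamin that is lost in senescent nuclei, had levels of 6.8 and 6.9 at 144h and 7.2 and 7.3 at T0, a fall by 0.40 ± 0.0776. In the list of nuclear lamina and high mobility group proteins, 8 of 9 were called lower, led by HMGA2, which fell by 1.30 ± 0.0589, and by HMGB1 and HMGB2. CDKN2B, the CDK4 and CDK6 inhibitor p15, stood at 7.1 and 7.1 at 144h, against 8.9 and 8.9 at T0, 3.48-fold higher at T0. CDKN1A, the inhibitor p21, differed by 0.05 ± 0.0469 and CDKN2A, the locus of p16 and ARF, by -0.10 ± 0.0624, and neither passed the test. Of 6 CDK inhibitor genes, 1 was called higher and 2 lower. The counts were 2 and 1 with quantile normalization, and 1 and 1 without any of the 4 arrays in turn. Along the labels, CDKN2B had mean levels of 8.90 at T0, 7.10 at 144h and 7.10 to 7.35 from 264h to 624h. The 1008h mean was 11.6 and the 2112h mean 10.2.

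Of 21 measured p53 targets, 13 were called higher and 2 lower, with a median of 0.30. TP53INP1, which promotes p53 phosphorylation and autophagy, had levels of 7.7 and 7.7 at 144h and 5.9 and 5.9 at T0. SESN1, a stress-induced inhibitor of mTORC1, rose by 0.90 ± 0.0926, and CCNG1 by 0.80 ± 0.0624. GDF15, a stress cytokine in the same list, fell by 0.40 ± 0.0552, and the kinase PLK3 by 0.55 ± 0.0512.

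**Figure D2:**
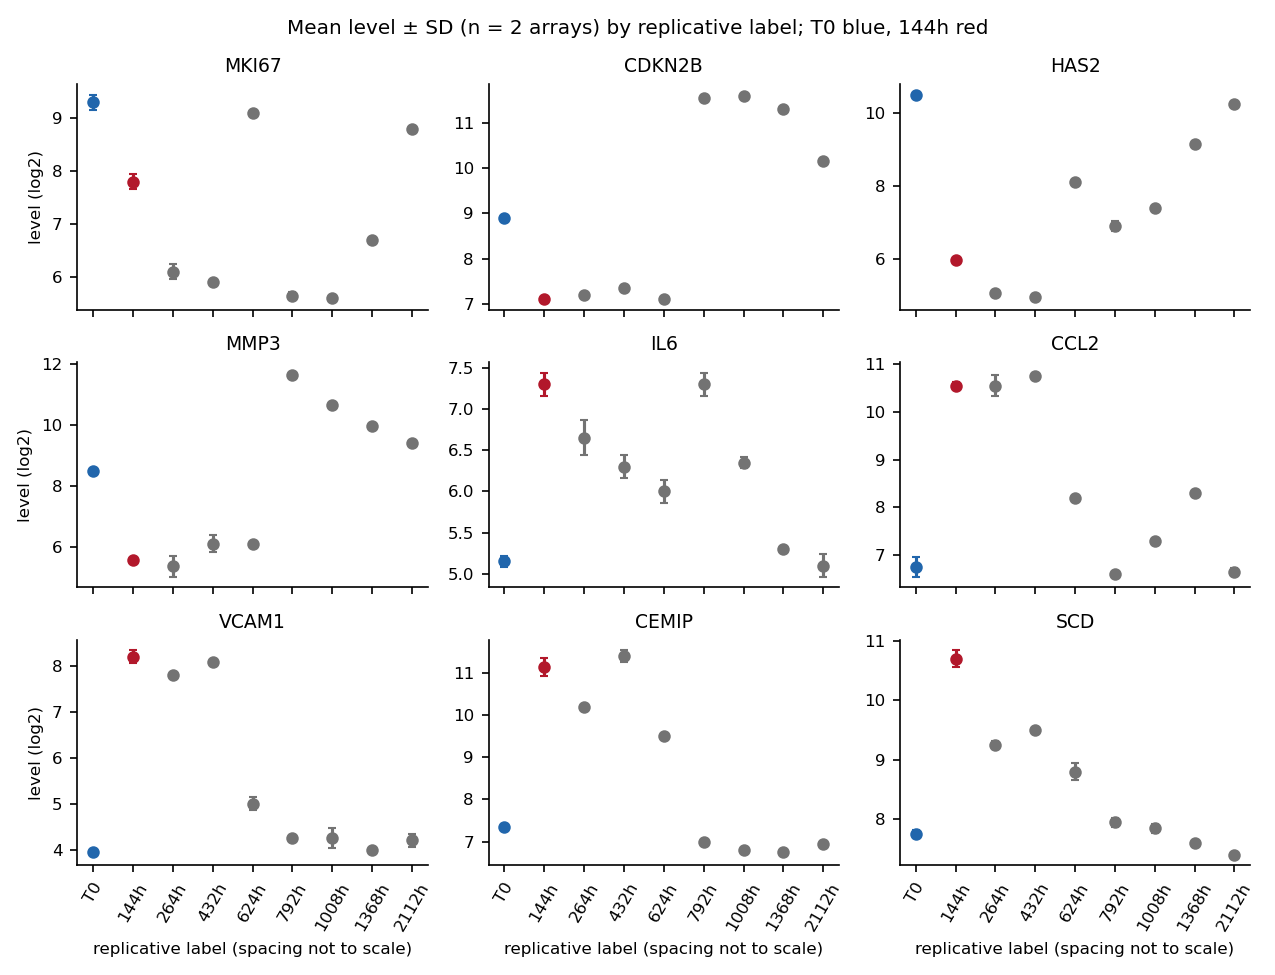
Mean level with SD (n = 2 arrays) of 9 genes at each of the 9 replicative labels, T0 in blue, 144h in red and the others in grey, on the deposited log2 scale. HAS2, VCAM1 and CCL2 at 144h lie nearer to 264h and 432h than to T0, CDKN2B is lowest from 144h to 624h, and MKI67 is high at T0, 624h and 2112h.

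Genes that report ERK signalling were mostly lower. Of 20 measured, 16 were called lower and 1 higher, and the median was -0.575. SPRY2 and SPRY4, Sprouty inhibitors of receptor tyrosine kinase signalling that ERK induces, had levels of 7.5 and 7.5, and of 8.2 and 8.2, at 144h. At T0 they stood at 9.9 and 9.9, and at 10.3 and 10.3. DUSP6, the phosphatase that shuts off ERK, fell by 1.65 ± 0.0552, and PHLDA1 by 1.25 ± 0.0776. SPRY1, of the same family, went the other way, with 8.1 and 8.0 at 144h against 5.7 and 5.8 at T0, a difference of 2.30 ± 0.122. EGR1, an immediate early factor, differed by -0.15 ± 0.202 and did not pass the test.

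AP-1 factors went both ways. FOS stood at 8.0 and 9.0 in the 144h arrays, against 6.9 and 6.5 in the T0 arrays, and FOSB at 7.9 and 8.9 against 6.5 and 6.3. The 144h partners lie a full unit apart in both genes, although neither group overlaps the other. JUN rose by 1.05 ± 0.107 and ATF3, a stress-induced partner of JUN, by 1.80 ± 0.194. The 144h partners were apart here too, with SDs of 0.283 for JUN and 0.495 for ATF3. Without each replicate in turn, the rises were 0.85 to 1.25 for JUN and 1.45 to 2.15 for ATF3. FOSL1, the factor FRA1, had 8.1 and 8.2 at 144h, against 9.6 and 9.7 at T0, and fell by 1.5 ± 0.0829. JUNB fell by 0.50 ± 0.103. Of 15 measured AP-1 genes, 7 were called higher and 4 lower.

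Secreted proteases and their partners were mostly lower, with 14 of 21 called lower, 8 of them by at least 2-fold, and 7 called higher. The median difference was -0.80. The stromelysins MMP10 and MMP3, which cleave matrix and activate other proteases, had levels of 4.1 and 4.2, and of 5.6 and 5.5, at 144h. At T0 they stood at 7.5 and 7.4, and at 8.5 and 8.5. The collagenase MMP1 had levels of 10.1 and 10.3 against 11.8 and 11.7. EREG, an EGF family ligand, fell by 2.35 ± 0.132, STC1, a secreted glycoprotein that hypoxia induces, by 2.20 ± 0.103, and IGFBP3 by 1.75 ± 0.193. PLAT, the tissue plasminogen activator, went up by 1.05 ± 0.0719, and HGF, the ligand of MET, by 0.80 ± 0.0512. Of 21 promoters of this list, 3 (14.3%) held TGANTCA, the letters that AP-1 binds, against 7.71% of all promoters, 7.56% of those of genes at least 2-fold higher and 8.2% of those of genes at least 2-fold lower. The letters also occur in the promoter of CXCL8, which belongs to the cytokines below. MMP10 and CXCL8 are shown because they hold them, MMP10 from 130 bases before its start site (chr11:102780609-102780758, minus strand) and CXCL8 from 150 bases before (chr4:73740419-73740568, plus strand), with TGANTCA in capitals.
MMP10: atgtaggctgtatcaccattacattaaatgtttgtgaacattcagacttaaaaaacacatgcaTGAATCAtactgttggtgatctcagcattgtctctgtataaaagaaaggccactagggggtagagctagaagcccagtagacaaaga
CXCL8: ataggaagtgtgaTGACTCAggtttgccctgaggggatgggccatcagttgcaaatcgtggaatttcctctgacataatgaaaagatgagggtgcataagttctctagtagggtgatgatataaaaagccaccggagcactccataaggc

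Cytokine genes went both ways. Of 21 measured SASP cytokines and chemokines, 9 were called higher and 10 lower, with a median of 0.0. The majority turned to 9 higher and 8 lower in the fit of only the 4 arrays compared and without 144h replicate 1, T0 replicate 1 or T0 replicate 2. IL6, the central cytokine of the list, had levels of 7.2 and 7.4 at 144h and 5.1 and 5.2 at T0, 4.44-fold higher at 144h. LIF, of the IL-6 family, rose by 1.90 ± 0.101, and CSF1, the macrophage growth factor, by 1.25 ± 0.0803. CXCL8, the neutrophil chemokine IL-8, had 5.1 and 5.3 at 144h, against 7.8 and 7.7 at T0, and fell by 2.55 ± 0.0803. IL1A and IL1B, the upstream interleukins of the SASP, fell by 1.75 ± 0.0719 and 1.20 ± 0.0879. IL11 and TNFSF15 fell by 1.60 ± 0.0829 and 1.30 ± 0.0854.

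NF-kB regulators and targets were more often higher, with 12 of 18 called higher and 4 lower. VCAM1, described above, leads them. TNFAIP3, the deubiquitinase A20 that limits NF-kB, had levels of 7.6 and 7.5 at 144h and 6.2 and 6.2 at T0. NFKBIZ, a nuclear co-factor for IL6, rose by 1.20 ± 0.139, with an SD of 0.354 in the 144h arrays. PTGS2, the cyclooxygenase COX-2, stood at 6.3 and 7.1 against 5.9 and 5.8. BIRC2, the ubiquitin ligase cIAP1, fell by 1.80 ± 0.0512, and RELA, the p65 subunit itself, by 0.75 ± 0.0719. Of 29 promoters of this list, 17 (58.6%) held a loose form of the NF-kB site (GGG, any 2 bases, T, any 2 bases, CC, or its reverse), against 22% of all promoters and 21% of those of genes at least 2-fold higher or lower. The VCAM1 window (chr1:100719612-100719761, plus strand) and the IL6 window (chr7:22727070-22727219, plus strand) are shown for the matches in capitals, a tandem pair in VCAM1. IL6 belongs to the cytokine list and is not counted among the 29.
VCAM1: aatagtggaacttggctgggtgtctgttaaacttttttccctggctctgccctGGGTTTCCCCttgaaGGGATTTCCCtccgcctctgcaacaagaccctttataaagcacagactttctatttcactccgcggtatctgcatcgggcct
IL6: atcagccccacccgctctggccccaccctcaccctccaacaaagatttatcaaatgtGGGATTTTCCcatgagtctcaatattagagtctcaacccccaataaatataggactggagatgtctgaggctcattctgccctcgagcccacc

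Interferon-stimulated genes were slightly higher, 15 of 26 called higher and 3 lower, and none of the 26 changed by 2-fold. The sensor IFIH1 had levels of 4.5 and 4.3 at 144h, against 3.4 and 3.5 at T0, and IFIT1, which binds viral RNA, 4.4 and 4.1 against 3.3 and 3.3. These T0 levels lay near the 5th percentile of those arrays, 3.4, where no background call could be made. Of all features with a mean level above 3 up to 4, 39.9% were called higher and 16.3% lower. USP18, which removes ISG15, rose by 0.80 ± 0.0748, while ISG15 itself fell by 0.35 ± 0.0829. Of 29 promoters of the list, 20 (69.0%) held the core of the interferon-stimulated response element (TTTC, any 2 bases, TTTC, or its reverse), against 3.57% of all promoters. Promoters of genes called at least 2-fold higher held it in 6.72% of cases, and those of genes at least 2-fold lower in 2.5%. The IFIT1 window, from 130 bases before the start site (chr10:89392493-89392642, plus strand), carries it in tandem, in capitals.
IFIT1: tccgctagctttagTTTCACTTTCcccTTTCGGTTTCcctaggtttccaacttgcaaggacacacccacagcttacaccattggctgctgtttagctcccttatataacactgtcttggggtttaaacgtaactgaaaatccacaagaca

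Collagen and fibrous matrix genes were more often higher. Of 28 measured, 17 were called higher and 4 lower, and the median was 0.225. FMOD, fibromodulin, which regulates collagen fibril assembly, had levels of 8.1 and 7.9 at 144h and 5.5 and 5.5 at T0. COL1A2 stood at 11.8 and 11.8 against 10.7 and 10.7, and COL1A1 rose by 0.45 ± 0.0803. The small proteoglycans LUM and DCN rose by 1.05 ± 0.0903 and 0.90 ± 0.0469, and ELN, elastin, fell by 0.40 ± 0.0421. INHBA, the activin A subunit, counted among the TGF-beta-responsive genes, had 8.0 and 8.1 at 144h, against 10.5 and 10.5 at T0. Of 23 contractile and TGF-beta-responsive genes, 7 were called higher and 9 lower. LMOD1, a leiomodin that nucleates actin filaments, rose by 1.15 ± 0.0719, and MYLK, the myosin light chain kinase, by 1.05 ± 0.0657. SMAD7 and SKIL, feedback inhibitors of TGF-beta signalling, fell by 1.30 ± 0.0719 and 1 ± 0.0552. ACTA2, the smooth muscle actin of myofibroblasts, differed by -0.05 ± 0.0657 and did not pass.

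YAP-responsive genes split, 7 of 20 called higher and 10 lower, 8 and 8 with quantile normalization, and 8 and 6 in the fit of only the 4 arrays compared. ANKRD1, a stretch-induced nuclear co-factor, had levels of 4.4 and 4.7 at 144h and 7.6 and 7.6 at T0. EDN1, the vasoconstrictor endothelin-1, fell by 2.60 ± 0.119. CCN1 rose by 0.65 ± 0.0657, and CCN2 differed by 0.15 ± 0.0657 without passing. WNT inhibitors moved in opposite directions: SFRP1 rose by 1.80 ± 0.0949 and DKK1 fell by 2.05 ± 0.119.

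Lipid synthesis genes were higher in part. Of 10 fatty acid genes, 6 were called higher and 1 lower. FADS2, a desaturase of polyunsaturated fatty acids, stood at 9.1 and 9.0 in the 144h arrays and at 8.0 and 8.0 in the T0 arrays, and FASN, the fatty acid synthase, rose by 0.45 ± 0.0624. Of 17 cholesterol genes, 8 were called higher and 5 lower. HMGCS1, which makes the precursor of mevalonate, rose by 0.90 ± 0.111, and MSMO1, a later step, fell by 0.40 ± 0.0689. Lysosome and autophagy genes were called higher in 12 of 21 and lower in 4. NPC1, the cholesterol exporter of the lysosome, was furthest from T0 among them, with 7.7 and 7.6 against 9.0 and 8.9.

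Stress genes were mostly lower or went both ways. Of 35 hypoxia targets and glycolytic genes, 20 were called lower and 7 higher. ANGPTL4, an inhibitor of lipoprotein lipase, fell by 1.95 ± 0.0879, and TPI1 and PFKP, glycolytic enzymes, by 0.85 ± 0.0512 and 0.75 ± 0.0469. VEGFA differed by 0.05 ± 0.0657 and did not pass. NRF2 and antioxidant genes were divided, 11 of 24 called higher and 7 lower. HMOX1 rose by 0.75 ± 0.0719, SLC7A11 fell by 0.95 ± 0.0469, and NQO1 differed by -0.05 ± 0.0624 without passing. TXNIP, an inhibitor of thioredoxin that was counted in this list, rose by 1.15 ± 0.0624. Amino acid and unfolded protein stress genes were called lower in 11 of 21 and higher in 1. They include SLC7A5 and its partner chain SLC3A2, which fell by 1.15 ± 0.0421, and the serine and asparagine enzymes PSAT1 and ASNS, which fell by 1.55 ± 0.0879 and 1.25 ± 0.0776. Of 12 heat shock chaperones, 8 were called lower and 2 higher. DNAJA1 fell by 0.70 ± 0.0748, while HSPA1A rose by 0.40 ± 0.0719 and HSPB1 by 0.20 ± 0.0689.

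In the other lists the calls were near the background or small. Respiratory chain genes were called lower in 12 of 33 and higher in 3, with a median of -0.05. Cytosolic ribosomal protein genes were called lower in 6 of 20 and higher in 3, and lower in 5 and higher in 7 with quantile normalization. Notch pathway genes were called lower in 6 of 14 and higher in 5, and 4 and 4 with quantile normalization. DLL4, a Notch ligand, rose by 0.80 ± 0.0854, and the Notch target HEY1 fell by 0.75 ± 0.111.

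The labelled cell type was checked against its markers. Of 13 measured fibroblast markers, 11 were called higher and 2 lower, and their mean level was 9.18 and 9.13 in the 144h arrays and 8.62 and 8.61 in the T0 arrays. PDGFRA, a receptor of mesenchymal cells, rose by 0.90 ± 0.0421, and VIM, vimentin, stood at 11.8 and 11.9 against 12.0 and 12.0. Leukocyte markers were called higher in 3 of 9 and lower in 2, at mean levels of 6.26 and 6.24 against 6.07 and 6.09. Endothelial markers were called higher in 4 of 10 and lower in 1, at 5.87 and 5.90 against 5.68 and 5.74, and PECAM1 stood at 4.5 and 4.9 against 3.1 and 3.7. With the filter on low values both lists had 2 called higher and 2 lower. Epithelial markers were called lower in 3 of 10 and higher in 2, at 5.88 and 5.92 against 6.00 and 5.97. KRT8, counted as higher at 0.35, also has a dimmer feature called lower, at -0.40. Of 8 smooth muscle and pericyte markers, 3 were called lower and 2 higher, at 7.10 and 7.11 against 7.20 and 7.12. No marker can be placed at 0 on this scale, and the part of other cell types in the results was not tested.

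**Figure D3:**
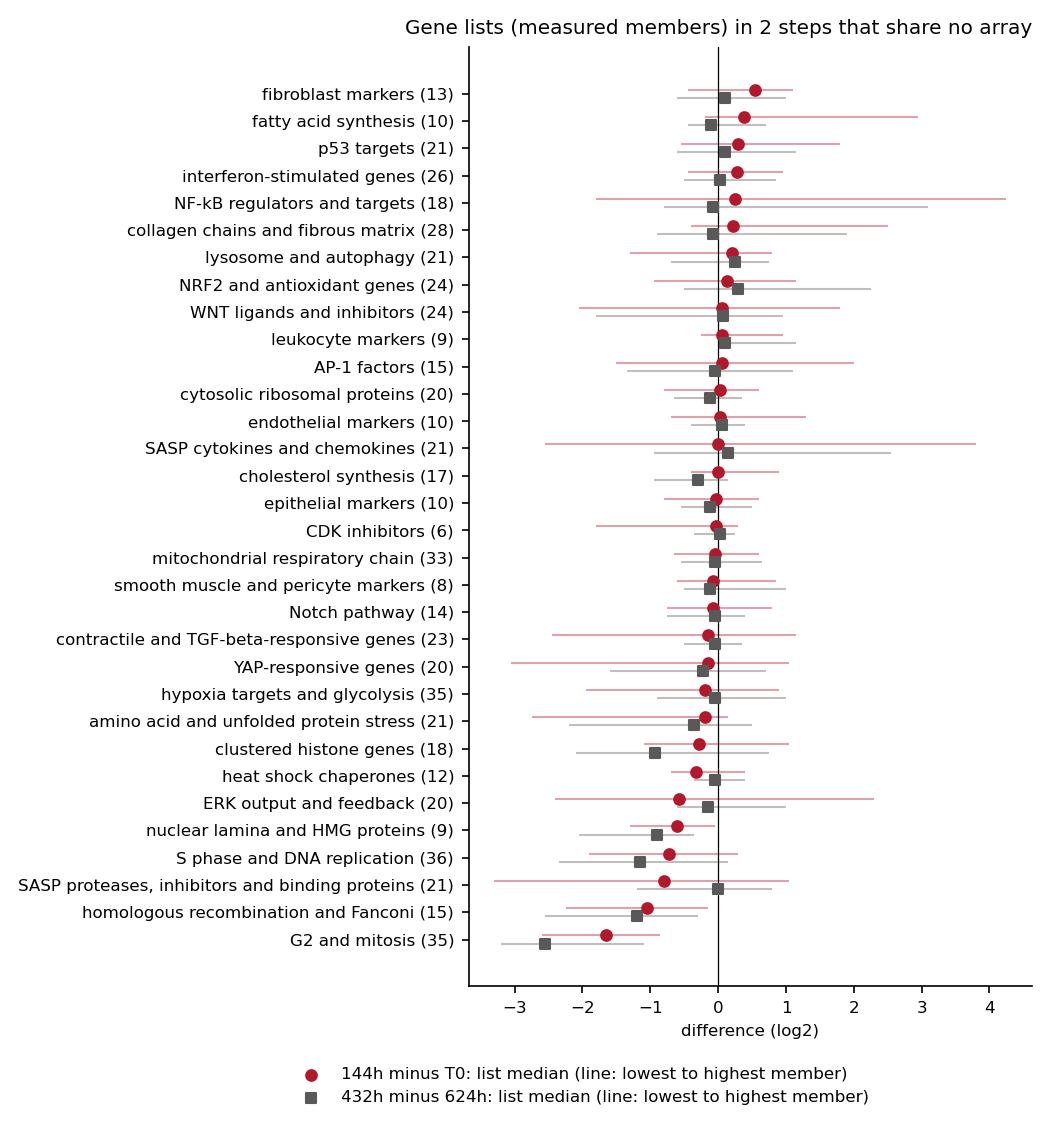
Median difference (log2) of each of 32 gene lists, with the number of measured members in brackets, for 144h minus T0 (red circles, n = 2 against 2 arrays) and for 432h minus 624h (grey squares, n = 2 against 2 other arrays). Lines run from the lowest to the highest member. The mitotic list is lowest in both steps, at -1.65 and -2.55, and the SASP protease list lies at -0.80 in the first step and 0.00 in the second.

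Small non-coding RNAs were called higher in larger shares than protein-coding genes. Of 235 snoRNA features, 145 (61.7%) were called higher and 33 lower, against 25.2% higher and 36.2% lower among 16562 protein-coding features. SNORA23 had levels of 10.6 and 9.8 at 144h, against 6.9 and 7.0 at T0. In the imprinted snoRNA clusters SNORD113 and SNORD114, which are processed from introns of a single host transcript, 34 of 39 were called higher, with a median of 0.95. SNORD114-4 stood at 6.1 and 6.1 against 3.1 and 3.0. Its T0 levels lay below the 5th percentile of those arrays, 3.4, where no background call could be made. All 15 features named RNU1, genes and pseudogenes of the U1 splicing RNA, were called higher, 12 by at least 2-fold, with a median of 1.45, and they were called higher in 432h minus 624h too. These copies are near-identical, so probes may read several of them, and 15 features are not 15 separate measurements. RNU1-11P stood at 11.5 and 11.4 against 9.0 and 8.7. The counts for RNU1 and for SNORD113 and SNORD114 were as large with quantile normalization.

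Dim features were also called higher more often. The values of the 144h arrays spread less over features, with SDs of 1.65 and 1.67 against 1.71 and 1.72 in the T0 arrays, and their 5th percentile was 3.6 against 3.4. Among the 232 features with a mean level of 3 or less, 72.4% were called higher and 3.45% lower, and 118 of them by at least 2-fold. Among the 3078 with a mean level above 8 up to 9, 25.4% were called higher and 46.8% lower. With quantile normalization, which gives each array the same spread, the shares were 59.9% and 12.1% for the dim features and 32.5% and 37.5% for those between 8 and 9. The share of snoRNA features called higher was 57.9% with quantile normalization, and that of SNORD115 and SNORD116 was 46.9%, against 65.6% without it.

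**Figure D4:**
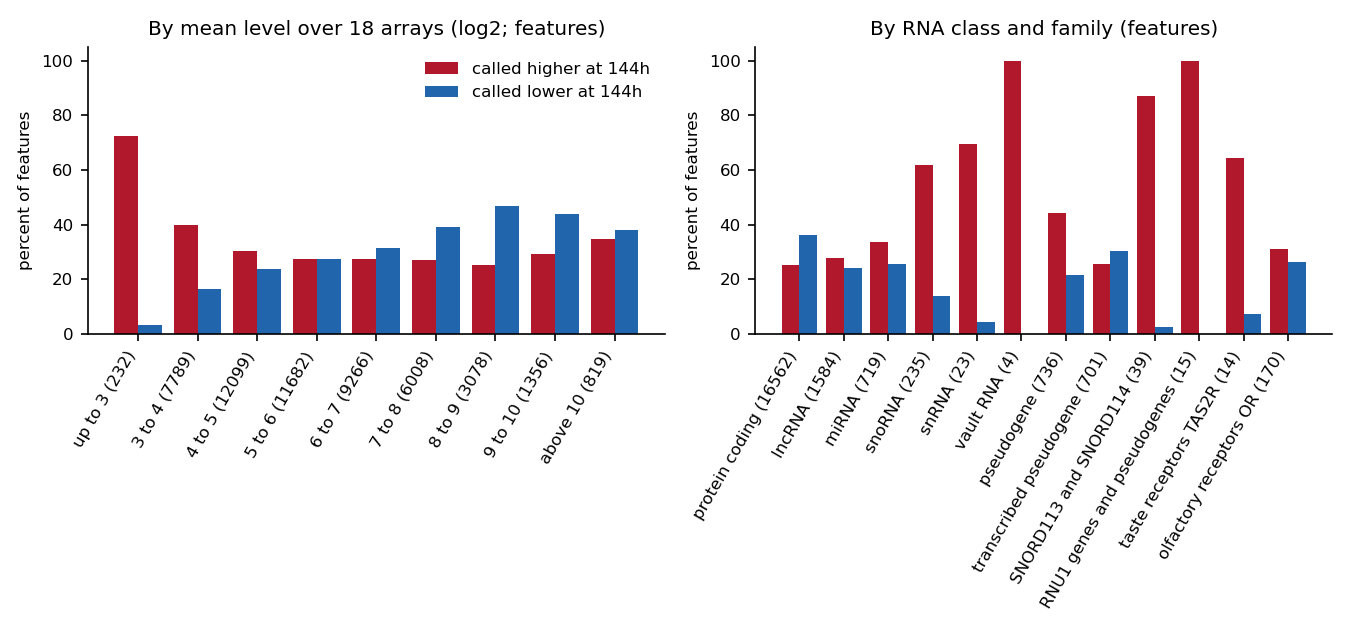
Percent of features called higher (red) or lower (blue) at replicative 144h than at replicative T0 (limma, adjusted p under 0.05, n = 2 arrays a group), by mean level over the 18 replicative arrays on the left and by RNA class or family on the right, with the number of features in brackets. The higher share is 72.4% in the dimmest bin and 61.7% for snoRNAs, against 25.2% for protein-coding features.

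MicroRNA genes on the array are read through their precursor transcripts, not as mature strands. Of 685 with a feature, 219 (32.0%) were called higher and 178 (26%) lower, near the background. The 6 below were chosen for their known roles in fibroblasts after their values were seen. Their mature sequences are from RefSeq (GRCh38.p14), with the seed, bases 2 to 8, in capitals. They lie at chr17:59841273-59841294 (plus strand), chrX:45746180-45746202, chrX:45747036-45747056, chrX:134546371-134546393, chrX:74218392-74218414 and chr9:21512158-21512178 (all minus strand).
hsa-miR-21-5p: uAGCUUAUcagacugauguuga
hsa-miR-221-3p: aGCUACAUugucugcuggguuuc
hsa-miR-222-3p: aGCUACAUcuggcuacugggu
hsa-miR-503-5p: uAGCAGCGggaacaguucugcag
hsa-miR-421: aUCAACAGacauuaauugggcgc
hsa-miR-31-5p: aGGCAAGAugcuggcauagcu
MIR221 and MIR222 share the seed GCUACAU, for which the CDK inhibitor p27 is a known target. MIR221 had levels of 6.5 and 6.9 in the 144h arrays, against 7.8 and 8.3 in the T0 arrays, and MIR222 5.0 and 5.2 against 6.4 and 6.5. Both fell by 1.35, ± 0.198 and ± 0.149. MIR503, a member of the family that lowers cyclins, fell by 1.45 ± 0.0903. MIR21, which fibrotic and activated fibroblasts carry at high levels, stood at 7.0 and 7.1 against 5.3 and 5.2, and MIR421 at 4.9 and 4.6 against 2.7 and 2.6. MIR31 had levels of 4.4 and 4.4 against 3.9 and 3.3, a rise by 0.80 ± 0.197, and its host transcript MIR31HG, described above, fell. The T0 levels of MIR421 lay below the 1st percentile of those arrays, 2.9, and those of MIR31 near the 5th, 3.4. No background call could be made at such levels, so MIR31 and its host cannot be said to part.

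The second step, 432h minus 624h, called 23780 features (45.4%), 12752 (24.4%) higher at 432h and 11028 (21.1%) lower. Of the 15774 features higher at 144h than at T0, 10162 (64.4%) were also higher at 432h than at 624h and 263 (1.67%) were lower. Taken the other way, 79.7% of the features higher at 432h were higher at 144h. Of the 14965 lower at 144h, 8878 (59.3%) were also lower at 432h and 269 (1.8%) were higher, and 80.5% of those lower at 432h were lower at 144h. Among features called at least 2-fold at 144h, 87.3% of the higher and 87.4% of the lower had the same call at 432h. Across the 52329 features the steps correlated at Pearson r 0.816 and Spearman rho 0.807, as a description over features that are not independent. HAS2 differed by -3.15, FGL2 by 3.90, VCAM1 by 3.10 and CCL2 by 2.55 in the second step.

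The steps differed at 5902 features (11.3%), where the difference of the differences was tested: 2846 (5.44%) were higher and 3056 (5.84%) lower in the first step. Mitotic genes fell further in the second step, with a median of -2.55, and 19 of 35 differed. MKI67 differed by -1.5 in the first step and -3.20 in the second (difference of the steps 1.70), TOP2A by -1.30 and -2.90, and LMNB1 by -0.40 and -2.05. The secreted proteases and ERK reporters moved more in the first step. MMP3 differed by -2.95 and 0.00, MMP10 by -3.30 and -0.55, EREG by -2.35 and 0.60, ESM1 by -4.05 and -0.15, and DUSP6 by -1.65 and 0.25. Of 21 SASP protease genes, 11 were called lower and 2 higher for the difference of the steps, and of 20 ERK genes, 12 and 1. CDKN2B differed by -1.80 in the first step and 0.25 in the second.

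Collagen, cholesterol and NF-kB genes were higher in the first step relative to the second. Of 28 matrix genes, 16 were called higher for the difference of the steps and 1 lower, of 17 cholesterol genes 11 and none, and of 18 NF-kB genes 10 and 2. COL1A1 differed by 0.45 and -0.45, HMGCS1 by 0.90 and -0.35, SCD by 2.95 and 0.70, TNFAIP3 by 1.35 and 0.10, and IL6 by 2.15 and 0.30. The transcription factor TOX differed by 2.50 and 0.10, and NPTX1, a neuronal pentraxin, by 1.30 and -1.30.

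**Figure D5:**
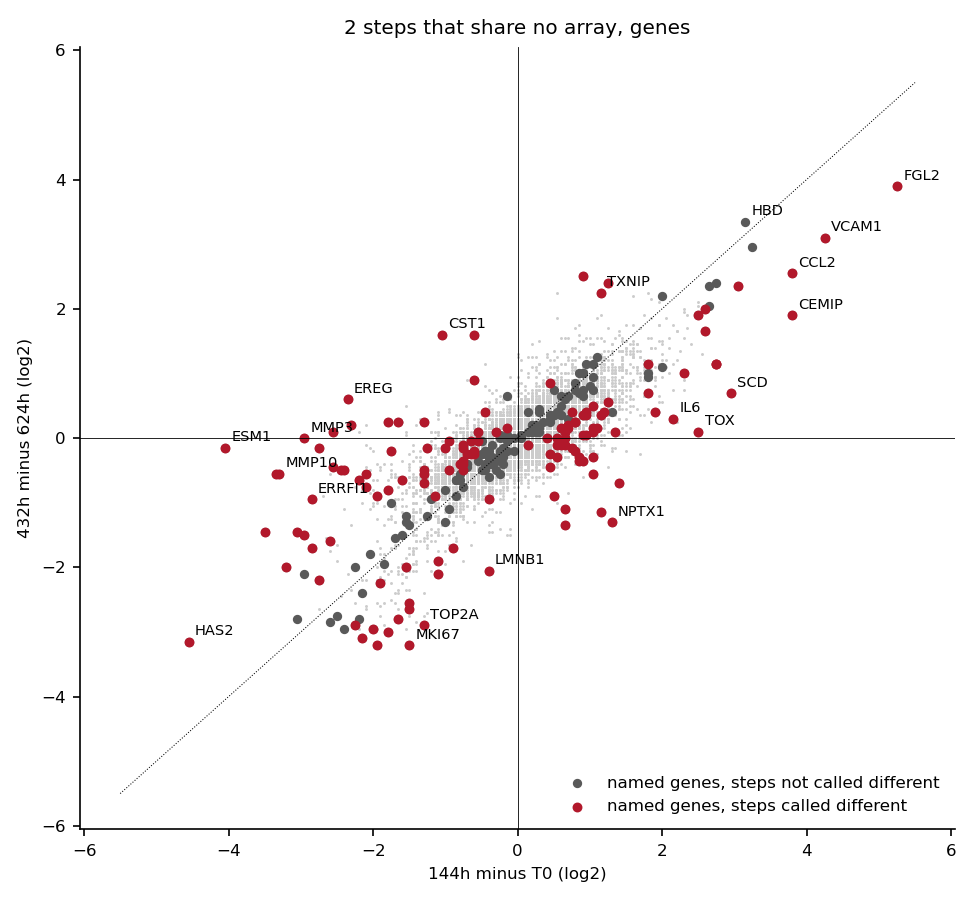
Difference 144h minus T0 (horizontal, log2) against 432h minus 624h (vertical, log2) for each gene (light grey) and the named genes (red where the steps were called different, dark grey where not), each from 2 against 2 arrays. VCAM1, CCL2 and HAS2 lie far out in both steps, while ESM1, MMP3 and EREG lie near 0 or above it in the second.

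The 144h arrays also differed from the later arrays on their own side of the division. Against the mean of 264h and 432h, 7046 features (13.5%) were called, 3164 (6.05%) higher and 3882 (7.42%) lower at 144h. The count was 4267 without 144h replicate 1 and 4520 without 144h replicate 2. Mitotic genes were higher at 144h in 34 of 35, with MKI67 by 1.80 and TOP2A by 1.65. POSTN, a matrix protein of activated fibroblasts, was higher by 2.45, PTGS2 by 2.20, LDOC1 by 1.98 and DLGAP5 by 1.60. The cysteine protease inhibitors CST1 and CST4 were lower at 144h, with differences of -2.675 and -2.25, as was ADAMTS19 with -1.775. Of 28 matrix genes, 20 were called higher at 144h than at these later labels and 3 lower.

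The T0 arrays differed from the mean of 624h to 2112h at 9241 features (17.7%), 4520 (8.64%) higher and 4721 (9.02%) lower at T0, and at 5661 without T0 replicate 2. That mean pools labels that can lie on both sides of T0. Mitotic genes were higher at T0 than this mean in 35 of 35, with a median of 1.91, and ASPM, CENPE and NUF2 by 2.31, 2.24 and 2.22. ESM1 was higher by 2.34, but its mean level was 8.25 at T0, 4.40 at 624h and 8.35 at 2112h. IL1B and IL1A were lower at T0 than the pooled mean, with differences of -2.96 and -2.50. Their levels at T0 were 6.70 and 5.95, above 5.45 and 4.05 at 624h and below 12.2 and 10.8 at 792h. CDKN2B, at -1.44, and SLC6A15, an amino acid transporter, at -2.21, were split in the same way: SLC6A15 had 7.55 at T0, 5.70 at 624h and 11.3 at 792h. Against the pooled mean, 14 of 21 SASP cytokine genes were called lower at T0 and 1 higher, and 16 of 21 p53 targets were called lower and none higher. Single later labels were not tested against T0.

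At or near the ends of the whole range lay features with no gene name. TC15001387.hg.1 had levels of 5.0 and 3.7 at 144h, against -1.2 and -0.7 at T0, and TC06003702.hg.1 5.9 and 5.5 against 1.2 and 1.3. TC15001009.hg.1 had 1.2 and 1.0 at 144h against 6.9 and 5.6 at T0, a fall by 5.15. TC14001413.hg.1 had 3.5 and 2.9 against 7.7 and 7.6, a fall by 4.45. In each of these features the lower group lay below the 5th percentile of its arrays, where no background call could be made.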

How the data were processed

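The values are the authors' deposited log2 values of 52329 features on 30 arrays. They run from -1.6 to 14.0 in steps of 0.1 and have a median of 5.5 in every array. Their summarisation, normalization and log base were not given in the sources used here. Fragmented biotin-labelled targets came from 100 ng RNA, per the labels' protocols. Arrays were grouped by their labels, 2 to each of 15 groups. The number of arrays limits the precision.

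Differences were tested two-sided with limma (version 3.58.1, lmFit and eBayes, under R 4.3.3) on the 18 replicative arrays in 9 groups, with 9 residual degrees of freedom, and p-values were adjusted with the Benjamini-Hochberg method over all features. A feature was called at an adjusted p under 0.05. The code was tested on simulated data. Of the features, 21055 have 1 gene symbol, 1406 several and 29868 none, and a gene with several features is given by the brightest.

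Named are the 15 genes with the highest and the 15 with the lowest called difference, up to 4 called members per direction of each of 32 gene lists, a set of key genes, the 6 highest and 6 lowest called genes of each other comparison, and at most 2 unnamed features per direction. The comparison and the lists were chosen with earlier results of these data known. Of 700 listed genes, 601 have a feature. Same-numbered arrays of 144h and T0 did not deviate together, at r = -0.01. Over 36 pairs of groups the deviations correlated at -0.28 to 0.31, and 9 pairs were over 0.1, the highest being 144h with 624h. Alternatives were other array sets, a replicate block, quantile and 75th percentile scaling, a filter on low values, a trended prior, leaving out each replicate, and the mean over a gene's features.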

Additional observations from a re-analysis of the deposited data

Results flagged for a closer look

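The difference between 144h minus T0 and 432h minus 624h was itself tested, and 5902 features passed, which flags the genes named for it. It was higher in the first step for NPTX1, at 2.60, for TOX, at 2.40, for LPPR4, a phosphatase-related membrane protein, at 2.30, for SCD, at 2.25, for the elongase ELOVL2, at 2.10, and for SLC7A14, a lysosomal transporter, at 2.00. It was lower for ESM1, at -3.90, for EREG and MMP3, at -2.95 each, for MIR31HG, at -2.80, for MMP10, at -2.75, and for the epithelial interferon IFNE, at -2.65. With 2 arrays a group, no array could be set against its own group.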

How the results depend on the processing

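For 144h minus T0, the count of called features was 21456 in the fit of only the 4 arrays compared, which has fewer samples. The count stayed within 1.5 times 30739 under 10 of 11 alternatives, that fit included. It was 25836 to 26335 without each replicate in turn and 20222 of 32251 with the filter on low values, which tests fewer features. That filter left 44.9% of calls higher, against 51.3% without it and 49.1% with quantile normalization. For 432h minus 624h the count was 15136 in the fit of only the 4 arrays compared, which has fewer samples. Without each replicate in turn, the difference of the steps gave 3770 to 4770 calls, 144h against 264h and 432h 4267 to 6050, and T0 against the later labels 5661 to 9192. The lowest counts came without 624h replicate 1 (3770), without 144h replicate 1 (4267) and without T0 replicate 2 (5661), and the difference of the steps gave 3880 without T0 replicate 2. With the replicate block, 30805 features were called for 144h minus T0 and 24021 for 432h minus 624h; same-numbered arrays of 144h and T0 deviated together at r = -0.01. Among 2879 checks of named genes, 2779 kept direction and call, 95 lost the call, 4 gained it and 1 changed sign. That was KRT8, a keratin, at 0.35 and called higher by its brightest feature. As the mean of its features KRT8 was -0.025 (limma, adjusted p = 0.812), without a call. All 325 checks of the 30 leading genes kept both. Those 30 were chosen as the extremes of this same comparison, so their keeping the call is not separate support. Genes that the filter on low values removed were not checked in that setting, which covered 244 of the 263 named genes. The majority direction held in all 12 settings for 25 of 32 lists. Values rounded to 0.1 and 2 arrays a group limit what small differences can show.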
